A study of Mus musculus with 16 samples.

Results

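Cytosolic ribosomal proteins are the protein part of the ribosome that translates messenger RNA from the nucleus. They were taken here as the 78 genes, of 55278 gene symbols in the tables, whose names follow the Rpl or Rps pattern, without rows named as pseudogenes. They comprise 43 genes of the large subunit, 30 of the small subunit, 3 of the stalk (Rplp0, Rplp1 and Rplp2) and 2 paralogues, Rpl3l and Rpl22l1. All 78 are annotated as protein coding, they lie on 19 chromosomes, and all 78 passed the filter on low counts. The rule leaves out several genes whose products are also in or on the ribosome, among them Rps3a1, Fau and Rack1, which are given with the other translation genes.

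The libraries hold RNA from the heart. The mice were C57BL/6J males, 8 to 12 weeks old, sampled 12 h after an injection into the peritoneum. The 4 groups of 4 libraries were PPARα-deficient mice given LPS at 5 mg/kg, PPARα-deficient mice given PBS, Ppara-flox mice given LPS at 5 mg/kg and Ppara-flox mice given PBS. LPS is a bacterial endotoxin, PBS its saline vehicle, and PPARα a nuclear receptor that switches on genes of fatty acid oxidation. The deficiency is one of cardiomyocytes. The labels give neither a Cre driver nor a group with Cre alone, so the loss of PPARα and the presence of Cre cannot be told apart. Ppara averaged 7.98 CPM (counts scaled by the TMM-adjusted library total) in PPARα-deficient LPS hearts, 14.6 in PPARα-deficient PBS hearts, 11.3 in Ppara-flox LPS hearts and 50.2 in Ppara-flox PBS hearts. After LPS the genotypes overlapped in Ppara, at 4.25 to 11.9 CPM in PPARα-deficient and 7.23 to 14.7 CPM in Ppara-flox hearts. After PBS they did not, at 11.4 to 17.6 CPM against 37.4 to 59.3 CPM. Every LPS library has a higher number in its column name than every PBS library. The treatment and that number series therefore cannot be told apart.

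Each ribosome carries a copy of nearly every one of these proteins, and their messenger RNAs are among the most abundant in most cells. In mammals these messenger RNAs begin with a run of pyrimidines, the 5′ terminal oligopyrimidine (TOP) motif, through which mTOR signalling controls their translation. Rpl3 encodes the large subunit protein uL3, which reaches towards the peptidyl transferase centre. Rpl3l encodes a form of it that is restricted to heart and skeletal muscle.

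The sequence around the transcription start is shown for some of the genes whose response to LPS is described below, since it is where a TOP motif would lie. The lines give 60 bases, 30 on each side of the start in RefSeq on GRCm38.p6, on the gene's strand, with the longest pyrimidine run of at least 8 bases in capitals.
Rpl7a, chr2:26910777-26910836, plus strand: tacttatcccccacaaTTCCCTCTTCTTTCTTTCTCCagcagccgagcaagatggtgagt
Rps12, chr10:23787180-23787239, minus strand: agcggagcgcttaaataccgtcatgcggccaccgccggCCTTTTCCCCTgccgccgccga
Rps6, chr4:86857338-86857397, minus strand: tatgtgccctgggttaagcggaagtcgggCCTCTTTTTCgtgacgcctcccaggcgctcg
Rpl22l1, chr3:28805478-28805537, plus strand: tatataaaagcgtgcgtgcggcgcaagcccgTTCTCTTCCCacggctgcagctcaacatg
Rpl22, chr4:152325696-152325755, plus strand: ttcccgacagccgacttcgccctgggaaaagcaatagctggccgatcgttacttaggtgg
Rpl3l, chr17:24727796-24727855, plus strand: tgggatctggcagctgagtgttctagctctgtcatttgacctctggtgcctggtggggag
The run is 21 bases long in Rpl7a, 11 in Rps12, and 10 in Rps6 and in Rpl22l1, while the windows of Rpl22 and Rpl3l hold none of at least 8 bases. Among windows not shown, those of Rpl41, Rpsa and Rplp0, which rose in Ppara-flox hearts, also hold none. Those of Rps25 and Rps27, called higher in neither genotype, hold runs of 14 and 9 bases. Whether the run goes with the response to LPS was not tested. Of the 58 genes with a RefSeq promoter, 30 (51.7%) held such a run, against 22.8% of all promoters. Rpl3 and Rps27a were not among the 58. The motif CCGGAAG, searched on both strands of 300 bases, was in 22 of the 58 (37.9%) and in 9.12% of all promoters. A match is a description of letters in this window. Shorter pyrimidine runs were not counted and the position of the run was not fixed, so the search cannot show whether a TOP motif is present or absent.

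After LPS, messenger RNAs of both subunits were more abundant in hearts of both genotypes. In PPARα-deficient hearts 63 of the 78 genes rose and 0 fell at an adjusted p under 0.05 (edgeR's quasi-likelihood test, Benjamini-Hochberg adjustment over 18713 genes), where 19.4% of all genes tested rose and 18.3% fell. In Ppara-flox hearts 58 rose and 1 fell, where 20.2% of all genes rose and 19.1% fell. The median log2 fold change of the 78 was 0.45 in PPARα-deficient and 0.42 in Ppara-flox hearts, beside 0.01 over all genes tested in each. The gene that fell was Rpl3l. In all, 56 genes rose in both genotypes, where at most 19.4% of all genes tested can have done so. Every LPS library lay above every PBS library for 62 of the 78 genes in PPARα-deficient hearts, where 19.5% of all genes tested did so, and for 50 in Ppara-flox hearts, where 19.2% did. Every LPS library lay below every PBS library for 0 of the 78 in each genotype, where 18.4% of all genes did so in each.

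**Figure D1:**
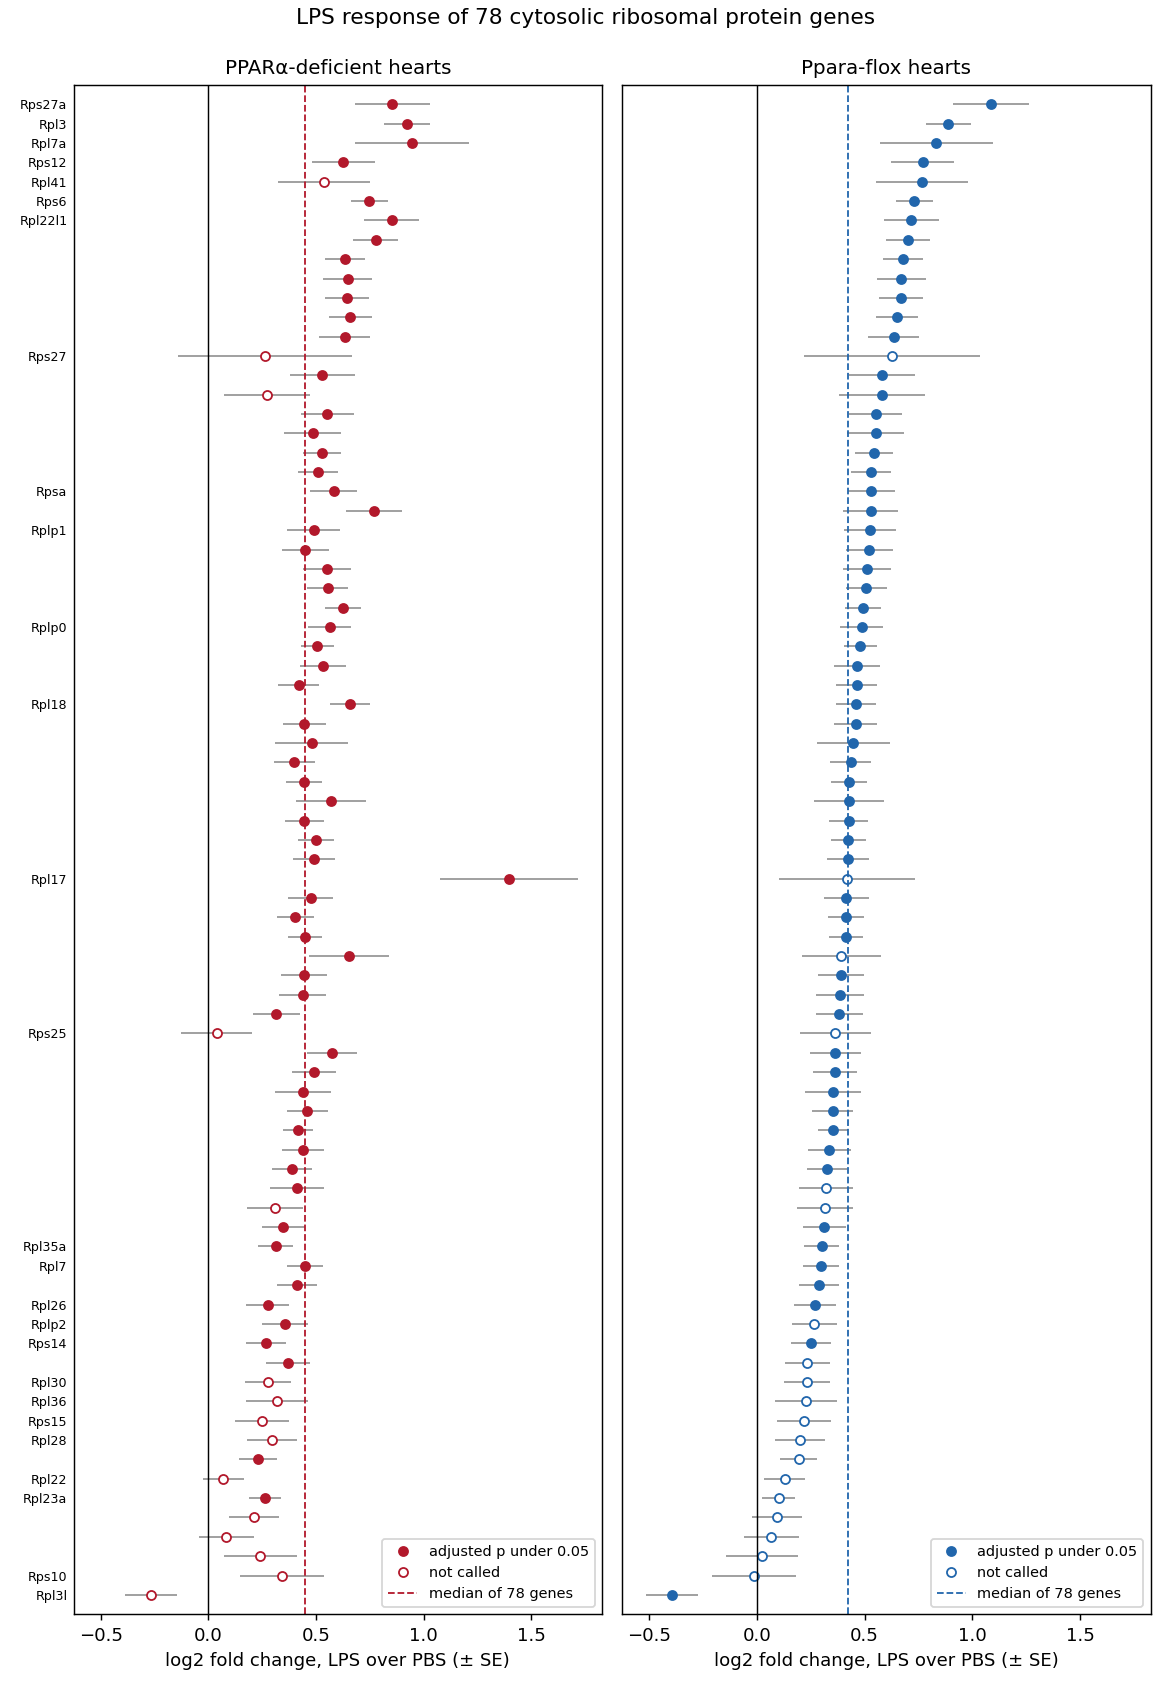
Log2 fold change of LPS over PBS with its standard error for each of the 78 genes, in PPARα-deficient (left) and Ppara-flox hearts (right). Genes are ordered by the value in Ppara-flox hearts and, except for Rps24, labelled where named in the text. Filled points have an adjusted p under 0.05 and dashed lines are medians (0.45 and 0.42). Most genes lie to the right of 0 in both panels, with Rpl3l lowest in each.

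The 78 genes together made up 12912.5 ± 1159 CPM in PPARα-deficient LPS hearts and 9337 ± 617 CPM in PPARα-deficient PBS hearts (SD, n = 4 each). The corresponding sums were 12503.8 ± 1300 CPM in Ppara-flox LPS hearts and 9317 ± 742 CPM in Ppara-flox PBS hearts (SD, n = 4 each). The lowest LPS library, at 11148.2 CPM, lay above the highest PBS library, at 10001.8 CPM. Over the 78 genes, the median deviation from the group mean was highest in Ppara-flox LPS replicate 2 (0.21 on the log2 scale) and lowest in replicate 4 of the same group (-0.15), followed by replicate 3 of PPARα-deficient LPS hearts (-0.13). In bulk tissue a change in RNA per cell and a change in the mix of cells cannot be told apart. Summed over 9 cardiomyocyte markers, the level was 35215 to 39960 CPM in PPARα-deficient LPS hearts, against 56439 to 64506 CPM in PPARα-deficient PBS hearts. In Ppara-flox hearts it was 31025 to 37180 CPM after LPS, against 60542 to 67789 CPM after PBS. Over 8 neutrophil markers the sum was 53.5 to 88.5 CPM in PPARα-deficient LPS hearts, against 4.06 to 11.6 CPM in PPARα-deficient PBS hearts, and 61.6 to 111 CPM in Ppara-flox LPS hearts, against 3.85 to 5.28 CPM in Ppara-flox PBS hearts, with the neutrophil marker Ly6g at 0 in both PBS groups. Macrophage markers averaged 195 CPM after LPS against 229 after PBS in PPARα-deficient hearts, and 165 against 204 in Ppara-flox hearts. Endothelial markers averaged 711 against 872 CPM in PPARα-deficient and 824 against 902 CPM in Ppara-flox hearts. Fibroblast markers averaged 853 against 815 CPM in PPARα-deficient and 810 against 867 CPM in Ppara-flox hearts. The part of these shifts in the ribosomal protein result was not tested.

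**Figure D2:**
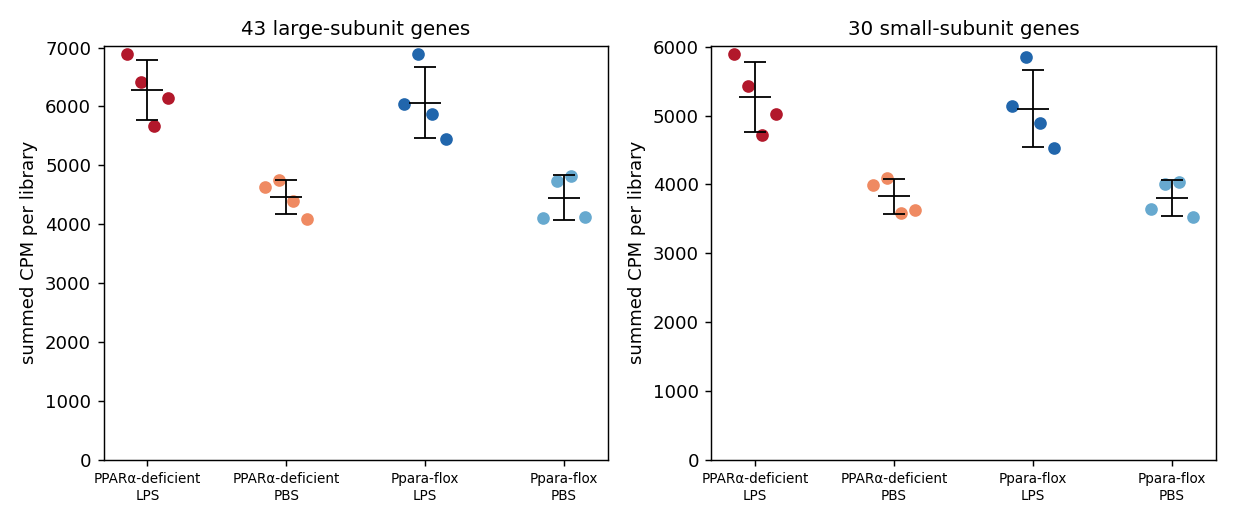
Summed CPM of the 43 large-subunit (left) and 30 small-subunit genes (right) in each library, by group, with the mean and SD of 4 libraries. In both panels the LPS libraries of each genotype lie above its PBS libraries.

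Genes of both subunits rose in both genotypes. Of the 43 large-subunit genes 36 rose in PPARα-deficient hearts and 35 in Ppara-flox hearts, with medians of 0.45 and 0.43 on the log2 scale. Of the 30 small-subunit genes 23 rose in PPARα-deficient hearts and 20 in Ppara-flox hearts, with medians of 0.42 and 0.36. Over all genes tested, 19.4% rose in PPARα-deficient and 20.2% in Ppara-flox hearts, with a median of 0.01 in each. The difference between subunits was not tested.

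Rpl3, the standard form of uL3 (chr15:80077791-80091868 on GRCm38, minus strand), was among the genes that rose most. It had 185, 187, 157 and 189 CPM in PPARα-deficient LPS hearts, against 91.9, 98.1, 97.1 and 91.8 CPM in PPARα-deficient PBS hearts. In Ppara-flox hearts it had 179, 198, 172 and 164 CPM after LPS, against 94.4, 112, 103 and 75.6 CPM after PBS. All LPS libraries lay above all PBS libraries. It rose by 0.92 on the log2 scale after LPS in the PPARα-deficient genotype (SE 0.11, adjusted p = 3.6e-06) and by 0.89 in the Ppara-flox genotype (SE 0.11, adjusted p = 4.9e-06).

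Rpl3l, the muscle form (chr17:24727820-24736143 on GRCm38, plus strand), had the lowest log2 fold change of the 78 in both genotypes. Its level was 216, 184, 183 and 172 CPM in PPARα-deficient LPS hearts, against 250, 225, 206 and 226 CPM in PPARα-deficient PBS hearts. In Ppara-flox hearts it was 170, 224, 162 and 147 CPM after LPS, against 196, 240, 254 and 233 CPM after PBS. The LPS and PBS groups overlapped in both genotypes. With LPS the log2 fold change was -0.26 in PPARα-deficient hearts, which did not pass (SE 0.12, adjusted p = 0.0975), and -0.39 in Ppara-flox hearts, which did (SE 0.12, adjusted p = 0.016). The call in Ppara-flox hearts was lost without Ppara-flox LPS replicate 4 (-0.32, adjusted p = 0.055), and without Ppara-flox LPS replicate 2, which enters the shared estimate of spread, the gene passed in PPARα-deficient hearts (adjusted p = 0.0419).

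**Figure D3:**
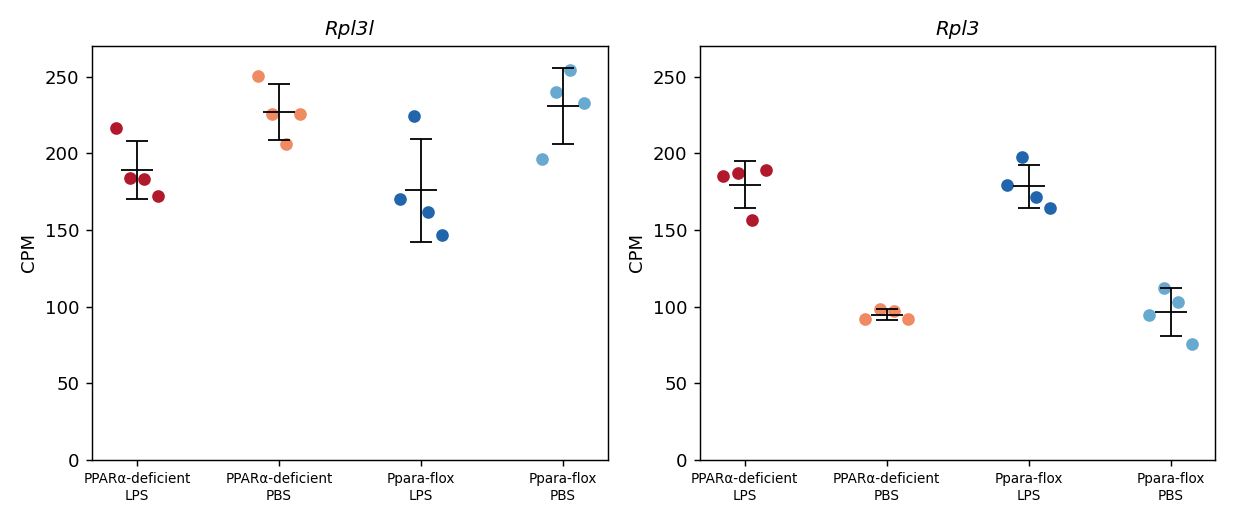
CPM of Rpl3l (left) and Rpl3 (right) in each library, by group, with the mean and SD of 4 libraries. Rpl3 is higher in every LPS library than in any PBS library, while the Rpl3l groups overlap.

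The Rpl3l to Rpl3 ratio was lower in every LPS library than in any PBS library. Rpl3l had 1.06 ± 0.13 counts per Rpl3 count in PPARα-deficient LPS hearts and 2.40 ± 0.26 in PPARα-deficient PBS hearts (SD, n = 4 each). The ratio was 0.98 ± 0.11 in Ppara-flox LPS hearts and 2.44 ± 0.46 in Ppara-flox PBS hearts (SD, n = 4 each). As a share of both genes' counts, Rpl3l made up 51.3% in PPARα-deficient LPS hearts, against 70.5% in PPARα-deficient PBS hearts, and 49.4% in Ppara-flox LPS hearts, against 70.6% in Ppara-flox PBS hearts. The log2 ratio differed by -1.18 (SE 0.12) in PPARα-deficient and by -1.31 (SE 0.15) in Ppara-flox hearts, with no overlap in either. The two-sided exact permutation p was 0.0286 for each, the smallest that 4 against 4 allows, and 0.0571 after adjustment over the 4 comparisons, which does not pass 0.05. Between genotypes the log2 ratio differed by 0.11 after LPS (exact permutation p = 0.371) and by -0.01 after PBS (exact permutation p = 0.914).

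Levels of the 2 genes can be compared only per length. Per kilobase of the transcript with the longest coding sequence (1375 bases for Rpl3l and 1351 for Rpl3), Rpl3l was at 165 and Rpl3 at 70.1 CPM per kilobase in PPARα-deficient PBS hearts, ranks 29 and 68 among the 78. In PPARα-deficient LPS hearts they were at 137 and 133 CPM per kilobase, ranks 51 and 52. In Ppara-flox LPS hearts Rpl3l was at 128 and Rpl3 at 132 CPM per kilobase, ranks 53 and 51, and in Ppara-flox PBS hearts they were at 168 and 71.3, ranks 28 and 68. With these transcript lengths the order of the pair after LPS thus differed between genotypes, by less than the SD of the count ratio. The level depends on the length used. Merged exons span 1643 bases for Rpl3l and 3175 for Rpl3. Per kilobase of these, the ratio of mean levels was 2.03 in PPARα-deficient LPS hearts and 4.63 in PPARα-deficient PBS hearts. With the transcripts it was 1.03 and 2.35. In Ppara-flox hearts the ratio by merged exons was 1.905 after LPS and 4.63 after PBS, beside 0.97 and 2.35 with the transcripts. By merged exons Rpl3l was thus above Rpl3 in LPS hearts of both genotypes. In PPARα-deficient PBS hearts the ranks of Rpl3l and Rpl3 were 11 and 56 by merged exons, and 25 and 63 with the first listed transcript among those of equal coding length. The change with LPS does not depend on it, since a length scales every library alike. The coding sequences of Rpl3l and Rpl3 were identical at 74.3% of 1206 aligned bases and shared 0 words of 50 bases.

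Rpl22 and Rpl22l1, another pair, encode the large subunit protein eL22 and its paralogue. Rpl22l1 had 16.1, 16.2, 15.7 and 12.0 CPM in PPARα-deficient LPS hearts, against 7.85, 8.76, 7.05 and 9.54 CPM in PPARα-deficient PBS hearts. In Ppara-flox hearts it had 14.1, 15.2, 13.1 and 15.7 CPM after LPS, against 9.30, 8.74, 7.70 and 9.61 CPM after PBS. After LPS it rose by 0.85 on the log2 scale in the PPARα-deficient genotype (SE 0.13, adjusted p = 5.1e-05) and by 0.72 in the Ppara-flox genotype (SE 0.13, adjusted p = 0.000238). Rpl22 did not pass, with log2 fold changes of 0.07 in PPARα-deficient (adjusted p = 0.598) and 0.13 in Ppara-flox hearts (adjusted p = 0.306). Here the paralogue and not the standard form was called, and the Rpl22l1 to Rpl22 count ratio was 0.215 in PPARα-deficient LPS hearts, 0.124 in PPARα-deficient PBS hearts, 0.202 in Ppara-flox LPS hearts and 0.134 in Ppara-flox PBS hearts.

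Among the stalk genes, which recruit the translation factors that hydrolyse GTP, Rplp0 had 913, 833, 702 and 772 CPM in PPARα-deficient LPS hearts, against 571, 604, 498 and 506 CPM in PPARα-deficient PBS hearts. In Ppara-flox hearts Rplp0 had 817, 868, 786 and 698 CPM after LPS, against 535, 638, 583 and 504 CPM after PBS. It rose by 0.56 (adjusted p = 0.000288) in PPARα-deficient and by 0.49 (adjusted p = 0.00096) in Ppara-flox hearts on the log2 scale, without overlap. Rplp1 rose by 0.49 in PPARα-deficient and 0.52 in Ppara-flox hearts. Rplp2 rose by 0.36 in PPARα-deficient hearts and had a log2 fold change of 0.27 in Ppara-flox hearts (adjusted p = 0.0532). Rpsa, a small-subunit protein also known as a laminin receptor, rose by 0.58 in PPARα-deficient and 0.53 in Ppara-flox hearts.

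The other genes with the highest called fold changes were Rps27a, Rpl7a, Rpl17, Rps12 and Rpl41. Rps27a, made as a fusion with ubiquitin, had 124, 90.7, 95.8 and 94.9 CPM in PPARα-deficient LPS hearts, against 62.3, 66, 43.1 and 52.7 CPM in PPARα-deficient PBS hearts. In Ppara-flox hearts it had 108, 121, 90.4 and 103 CPM after LPS, against 59, 44.9, 34.2 and 61.0 CPM after PBS. It rose by 0.85 in PPARα-deficient and 1.09 in Ppara-flox hearts on the log2 scale. Rpl7a, a large-subunit gene with the longest run among the windows above, rose by 0.95 in PPARα-deficient and 0.83 in Ppara-flox hearts. When single libraries were left out, its Ppara-flox value ranged from 0.61 to 1.00. The edgeR adjusted p then reached 0.0563, so that call can be lost. Rps12 rose by 0.63 in PPARα-deficient and 0.77 in Ppara-flox hearts. Rps6, the substrate of the S6 kinases, falls outside the rule for naming genes and was chosen for its window after its values were seen; it rose by 0.75 in PPARα-deficient and 0.73 in Ppara-flox hearts.

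Rpl17 had the highest log2 fold change of all 78 in the PPARα-deficient genotype, at 1.40 (SE 0.32, adjusted p = 0.00231). Its libraries were uneven, with 59.2, 31.3, 28.6 and 88.7 CPM in PPARα-deficient LPS hearts, against 19.9, 17.7, 20.1 and 21.2 CPM in PPARα-deficient PBS hearts. In Ppara-flox hearts Rpl17 had 24.3, 46.2, 21.0 and 26.6 CPM after LPS, against 16.6, 22.4, 30.2 and 19.0 CPM after PBS, with a log2 fold change of 0.42 (adjusted p = 0.324). When rows named as its own pseudogenes were summed with it, the log2 fold change was 0.48 (adjusted p = 0.000447) in PPARα-deficient and 0.37 (adjusted p = 0.00323) in Ppara-flox hearts. Summed in the same way, Rps27a was at 0.68 in PPARα-deficient and 0.76 in Ppara-flox hearts, Rpl7a at 0.66 and 0.60, Rps12 at 0.50 and 0.61, and Rpl3 at 0.89 in each, so Rps27a was then below Rpl3 in both genotypes. Rpl41 rose by 0.77 in Ppara-flox hearts (adjusted p = 0.00855) and had 0.54 in PPARα-deficient hearts (adjusted p = 0.0561).

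Rpl17 also varied most among replicates in PPARα-deficient LPS hearts, with a coefficient of variation of 54.2% where the median of the 78 genes was 9.30%.

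Pseudogenes are a general limit on single genes of this family. Of the 78 genes, 76 share words of 50 bases with another annotated gene, at a median of 56.4% of their transcript, and Rpl3 shares 85.6%. Rpl3l shares 0%. Rows named as pseudogenes held 7.02% to 8.09% as many counts as the 78 genes. Of the 8 genes sharing under 20%, 7 rose in PPARα-deficient hearts, and 6 rose and 1 (Rpl3l) fell in Ppara-flox hearts. With the first listed transcript at ties in coding length there were 10 such genes. Of these, 9 rose in PPARα-deficient hearts and 8 in Ppara-flox hearts. Of all genes tested, 19.4% rose in PPARα-deficient hearts, and 20.2% rose and 19.1% fell in Ppara-flox hearts.

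Among the lowest called increases in PPARα-deficient hearts were those of Rpl23a (0.26), Rps14 (0.27), Rpl26 (0.28) and Rpl35a (0.31) on the log2 scale. In Ppara-flox hearts those of Rps14 (0.25), Rpl26 (0.27) and Rpl7 (0.30) were among the lowest. These genes encode structural proteins of their subunit. Called in neither genotype as higher were 13 genes, among them Rpl22, Rpl28, Rpl30, Rpl36, Rpl3l, Rps10, Rps15, Rps25 and Rps27.

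With all 16 libraries no ribosomal protein gene was called between genotypes. Without Ppara-flox LPS replicate 2, Rps24 of the small subunit was called higher in PPARα-deficient than in Ppara-flox hearts after LPS (log2 fold change 0.35, SE 0.07, adjusted p = 0.0368), against 0.21 with all libraries (adjusted p = 0.585); it was looked up after this count was seen. After LPS, 0 of 78 passed in PPARα-deficient against Ppara-flox hearts with edgeR, where 0.385% of all genes were higher and 0.85% lower. At an unadjusted p under 0.05 edgeR had 2 of the 78, Rpl17 and Rpl18, and 1709 of 18713 genes. DESeq2 called 0 of 78 where it called 444 of 18713 genes. The median log2 fold change was 0.05. After PBS, 0 of 78 passed with DESeq2, which called 183 of 18713 genes. With edgeR 0 of 78 passed, where 0.0321% of all genes were higher and 0.401% lower. At an unadjusted p under 0.05 edgeR had 0 of the 78 and 1042 of 18713 genes. The median of the 78 after PBS was 0.01. For the difference between the LPS responses of the genotypes, 0 of 78 passed with edgeR or DESeq2. Of all genes, 0% passed with edgeR and 55 of 18713 with DESeq2. At an unadjusted p under 0.05 edgeR had 1 of the 78 and 1075 of 18713 genes. A p that misses the threshold does not show that the genotypes are alike. These comparisons share groups with those of LPS against PBS.

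Genes of ribosome assembly and translation were described from lists, each with its count, to be read beside the shares over all genes tested: 19.4% rose and 18.3% fell in PPARα-deficient hearts, and 20.2% rose and 19.1% fell in Ppara-flox hearts. Of 41 ribosome biogenesis factors, 34 rose in each genotype and 0 fell, with median log2 fold changes of 0.62 in PPARα-deficient and 0.71 in Ppara-flox hearts. Rrp12, an export factor for pre-ribosomes, rose by 1.31 in PPARα-deficient and 1.29 in Ppara-flox hearts, and Npm1, the nucleolar chaperone nucleophosmin, rose by 0.71 in PPARα-deficient and 0.83 in Ppara-flox hearts. Of 16 genes of RNA polymerase I and rDNA transcription, 8 rose and 0 fell in PPARα-deficient hearts, and 7 rose and 1 fell in Ppara-flox hearts.

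Of 33 initiation factors, 19 rose and 1 fell in PPARα-deficient hearts (19.4% of all genes rose and 18.3% fell), and 18 rose and 1 fell in Ppara-flox hearts (20.2% and 19.1% of all genes). Eif6, which keeps free large subunits from joining small ones, rose by 1.44 in PPARα-deficient and 1.38 in Ppara-flox hearts. Eif4a1, a helicase of the cap-binding complex, rose by 1.22 in PPARα-deficient and 1.29 in Ppara-flox hearts. Of 10 tested ribosomal genes that the rule leaves out, 6 rose in each genotype and 0 fell; Rack1, a scaffold on the small subunit, rose by 0.77 in PPARα-deficient and 0.60 in Ppara-flox hearts.

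Of 9 genes of elongation, a list of factors that also holds the kinase Eef2k, 5 rose and 0 fell in each genotype. Of all genes, 19.4% rose in PPARα-deficient and 20.2% in Ppara-flox hearts. Eef1a1, the widely expressed factor that delivers aminoacyl-tRNA, rose by 0.93 in PPARα-deficient and 0.95 in Ppara-flox hearts. Its muscle and neuron form Eef1a2 had log2 fold changes of -0.07 in PPARα-deficient (adjusted p = 0.688) and -0.13 in Ppara-flox hearts (adjusted p = 0.393). The Eef1a2 to Eef1a1 count ratio was 1.38 in PPARα-deficient LPS hearts, 2.79 in PPARα-deficient PBS hearts, 1.33 in Ppara-flox LPS hearts and 2.84 in Ppara-flox PBS hearts. Of both this pair and Rpl3 with Rpl3l, the widely expressed form rose in both genotypes and the muscle form in neither. Eef2k, the kinase that inhibits elongation factor 2, rose by 1.64 in PPARα-deficient and 1.66 in Ppara-flox hearts.

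**Figure D4:**
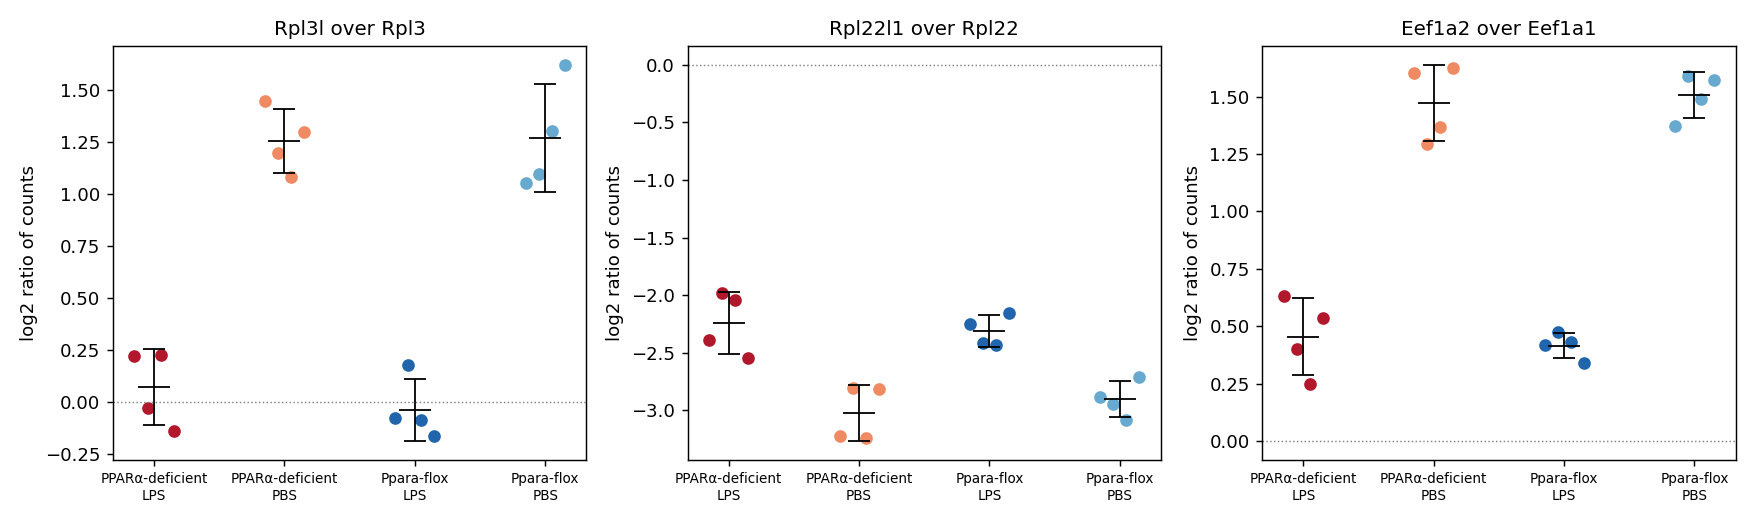
Log2 ratio of counts for 3 paralogue pairs in each library, by group, with the mean and SD of 4 libraries; each panel has its own axis. The Rpl3l and Eef1a2 ratios are lower and the Rpl22l1 ratio higher in LPS than in PBS hearts of each genotype.

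Of 23 genes of mTOR signalling and TOP mRNA control, 3 rose and 9 fell in PPARα-deficient hearts (19.4% of all genes rose and 18.3% fell), and 4 rose and 8 fell in Ppara-flox hearts (20.2% and 19.1% of all genes). The counts that rose are near the share of all genes, while the counts that fell are above it in both genotypes. This difference was not tested. Eif4ebp1, a repressor of cap-dependent initiation, rose by 1.40 in PPARα-deficient and 1.23 in Ppara-flox hearts. Myc, a transcription factor known to drive ribosomal genes, had 14.4 ± 2.2 CPM in PPARα-deficient LPS hearts, 3.14 ± 1.48 in PPARα-deficient PBS hearts, 17.0 ± 1.9 in Ppara-flox LPS hearts and 1.95 ± 0.41 in Ppara-flox PBS hearts (SD, n = 4 each). It rose by 2.20 in PPARα-deficient and 3.13 in Ppara-flox hearts, while its relative Mycn fell by 2.62 in PPARα-deficient hearts and fell by 2.52 in Ppara-flox hearts.

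**Figure D5:**
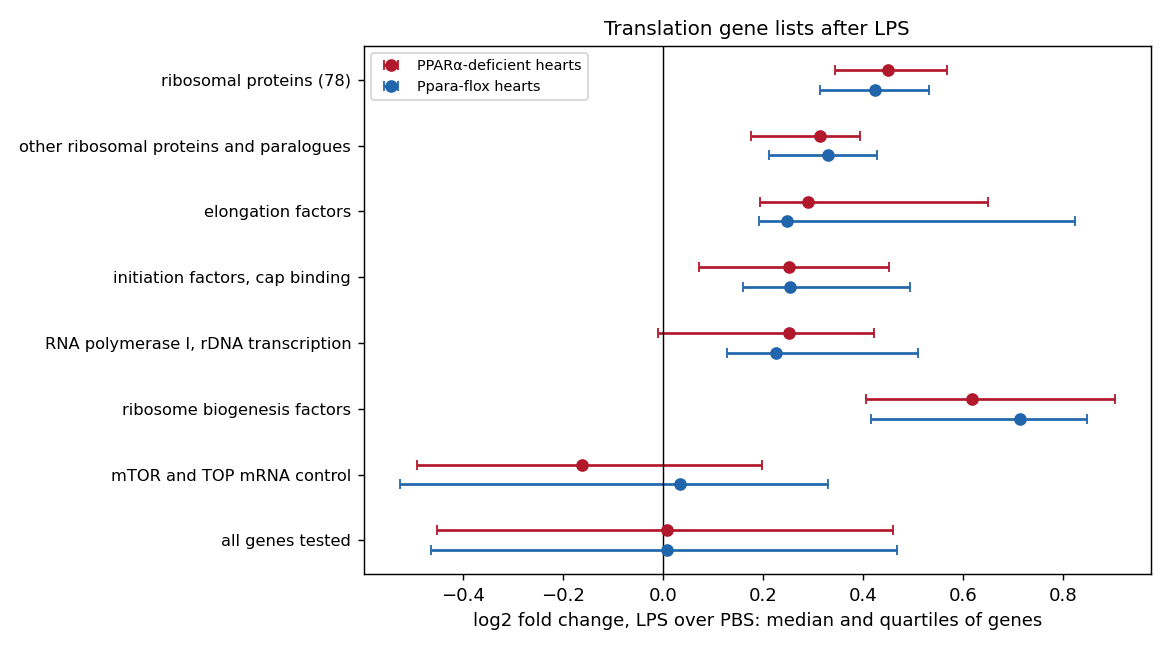
Median log2 fold change of LPS over PBS, with bars between the quartiles of the genes, for the 78 ribosomal protein genes, the other translation lists and all genes tested, in PPARα-deficient and Ppara-flox hearts. Biogenesis factors have the highest median (0.62 and 0.71) and all genes tested lie at 0.01.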

How the data were processed

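Each deposited table gives, for every gene symbol, an estimated count (an expected count) that is a whole number and has not been normalised. Per the submitters' processing notes the tools included fastp (0.23.2), StringTie (1.3.3b), HISAT and DESeq2 (1.30.1), with the build GRCm38; the counter, annotation and strand setting are not given in the sources used here. Library totals ran between 65569134 and 75436023. Multiples of 4 are over-represented among low values, and dividing the totals by 4 gives 16392284 to 18859006, which may be closer to the read pairs counted. Of 55421 lines, 27 with symbols turned into dates were left out (0.0644% to 0.0861% of counts). The labels' extraction text speaks of islets, but Ins1 and Ins2 had 0 counts in every library and Myh6 at least 17239 CPM.

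Counts were tested with edgeR 4.0.16 in R 4.3.3 (filterByExpr, TMM factors, 4 group means over 16 libraries, quasi-likelihood F test). Alternatives used DESeq2 1.42.0 and limma 3.58.1. Transcripts and coordinates came from GENCODE vM21 and promoters from RefSeq. Named genes were the paralogue pairs, stalk genes, Rpsa, the 5 highest and 5 lowest called members per LPS comparison, and up to 4 genes per other list. A few genes that this rule takes are not reported here. The members and lists were chosen with earlier results of these data known. The length basis (merged exons or transcripts) and the choice among transcripts of equal coding length were changed after values had been seen, so both are given. The labels do not say whether each library is from a separate mouse, so p-values measure the spread between these libraries, which may be technical.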

Additional observations from a re-analysis of the deposited data

Results flagged for a closer look

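In 3 groups of 4 a named gene had 1 library apart from the others, by Dixon's test at 95%. Rpl22l1 had 11.96 CPM in PPARα-deficient LPS replicate 4, against 15.7 to 16.2 in the other replicates. Rpl3 had 156.5 CPM in PPARα-deficient LPS replicate 3, against 185 to 189 in the others. Rps27a had 123.9 CPM in PPARα-deficient LPS replicate 1, against 90.7 to 95.8 in the others. Over all 78 genes 15 of 312 groups stood out in this way (4.81%), and chance gives about 1 in 20.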

How the results depend on the processing

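Over the alternatives that keep all libraries or leave out a pair, 51 to 67 genes rose in PPARα-deficient and 44 to 62 in Ppara-flox hearts, with medians of 0.40 to 0.50 and 0.37 to 0.49. Over all genes those alternatives called 5040 to 7608 in either direction in PPARα-deficient and 5221 to 7850 in Ppara-flox hearts, of 13387 to 29709 tested. Leaving out each library in turn, 57 to 65 of the 78 rose in PPARα-deficient and 49 to 62 in Ppara-flox hearts. Over all genes 6265 to 7141 and 6541 to 7434 were then called in either direction. DESeq2 called 66 and 58 of the 78 higher, where it called 7608 and 7850 of 18713 genes in either direction. It called 0 of the 78 between genotypes, where it called 444 of all genes after LPS and 183 after PBS. The fall of Rpl3l in Ppara-flox hearts was lost at an adjusted p under 0.01 (-0.39, adjusted p = 0.016) and with both of the lowest LPS libraries left out, replicate 4 of Ppara-flox and replicate 3 of PPARα-deficient hearts (-0.32, adjusted p = 0.0617), leaving 0 genes lower each time; the cause was not tested. Without single libraries Rpl3l ranged from -0.53 to -0.32 in Ppara-flox hearts (0 to 1 genes lower) and from -0.34 to -0.21 in PPARα-deficient hearts (0 to 1 genes lower), and 0 to 1 genes (Rps24, without Ppara-flox LPS replicate 2) were higher between genotypes after LPS. The log2 ratio of Rpl3l to Rpl3 ranged from -1.24 to -1.11 and from -1.38 to -1.19. The replicate numbers pair no mice in the labels, and same-numbered libraries did not deviate together (correlations of -0.07 to 0.07); with a replicate block 66 genes rose in PPARα-deficient and 60 in Ppara-flox hearts, and Rpl3l was at -0.27 and -0.40. Summing pseudogene rows was chosen after seeing the data. No counting intervals were computed, since the totals may not be read counts.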
